A study of Mus musculus with 2 samples.

Results

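The 10 genes described here encode receptors that let cells of the innate immune system bind antibody or take up particles: the Fc receptor genes Fcgr1, Fcgr2b, Fcgr3, Fcer1g and Fcer1a, and the scavenger receptor genes Msr1, Marco, Cd36, Cd68 and Stab1. They were chosen by name, as all non-control spots whose gene name on the array equalled a listed symbol. The 10 genes, of 27576 gene names on the array, were covered by 19 probes on 28 spots, and all 19 probes were well above background on both arrays. RNA came from the dorsal skin, full thickness, of male C3H/HeN mice aged 61 days, depilated 5 days earlier to start anagen, the growth phase of follicles. The FGF18 group had received 1 µg of the secreted growth factor FGF18 under the skin on day 4, and the PBS group phosphate-buffered saline in its place, 24 h before sampling. Both groups shared the strain, sex, depilation and injection, and no genetic change is named in the labels. RNA was pooled within each group for 1 array per group according to the design text, although the extraction protocol describes separate extraction and names 3 mice without saying whether per group. For the PBS sample the title names telogen, the resting phase, but its source name and hair cycle entry name anagen.

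Fc receptors bind the constant part of antibodies. The activating receptors for IgG and IgE signal through the common gamma chain, encoded by Fcer1g, whose phosphorylated tyrosine motif (ITAM) recruits the kinase Syk, whereas the receptor encoded by Fcgr2b carries an inhibitory motif (ITIM) that recruits phosphatases. Scavenger receptors are an unrelated group of surface and lysosomal proteins that bind modified lipoproteins, microbes and cell debris. In skin both groups are best known from macrophages, mast cells and dendritic cells, and Cd36 also from fat cells and capillaries.

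With 1 array per group no test was possible, no p-value is given, and the difference between the groups has no replicate check. Each value is the scanner's processed signal (background-subtracted intensity). Ratios are FGF18 minus PBS on the log2 scale. Each array was first scaled to its own 75th percentile (1020 on the FGF18 array, 899 on the PBS array). A fold given as higher on the FGF18 array is thus larger without scaling, and one given as lower is smaller. Over the 16610 genes measured on both arrays the median log2 ratio was -0.07, the central 50% lay between -0.23 and 0.09, and the central 95% between -0.75 and 0.73. Intervals given for probes are 95% intervals from the signal errors deposited with each spot, and cover the measurement on these arrays, not the spread between mice. For differences between genes they treat the errors of probes as independent and leave out disagreement between the probes of a gene. In whole skin, fewer cells of a type and less RNA per cell cannot be told apart.

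Of the 10 receptor genes, 2 were at least 2-fold higher on the FGF18 array, Fcgr1 at 6.57-fold and Msr1 at 2.93-fold, beside 1.54% of all genes. None (0 of 10) was at least 2-fold lower, beside 0.987% of all genes. Fcer1g was 1.57-fold higher, so at a threshold of 1.5-fold 3 of 10 were higher and 0 lower, beside 3.79% and 4.82% of all genes. Fcgr3, Stab1 and Fcgr2b were 1.42-, 1.42- and 1.39-fold lower, and Fcer1a, Marco, Cd36 and Cd68 lay between -0.14 and 0.31 on the log2 scale. The median over the 10 genes was 0.05 against -0.07 for all genes, with 6 of 10 above the latter. The receptors thus lay on both sides of the all-gene median, and in the plot of ratios against signal strength they range from among the lower genes to near the top.

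**Figure D1:**
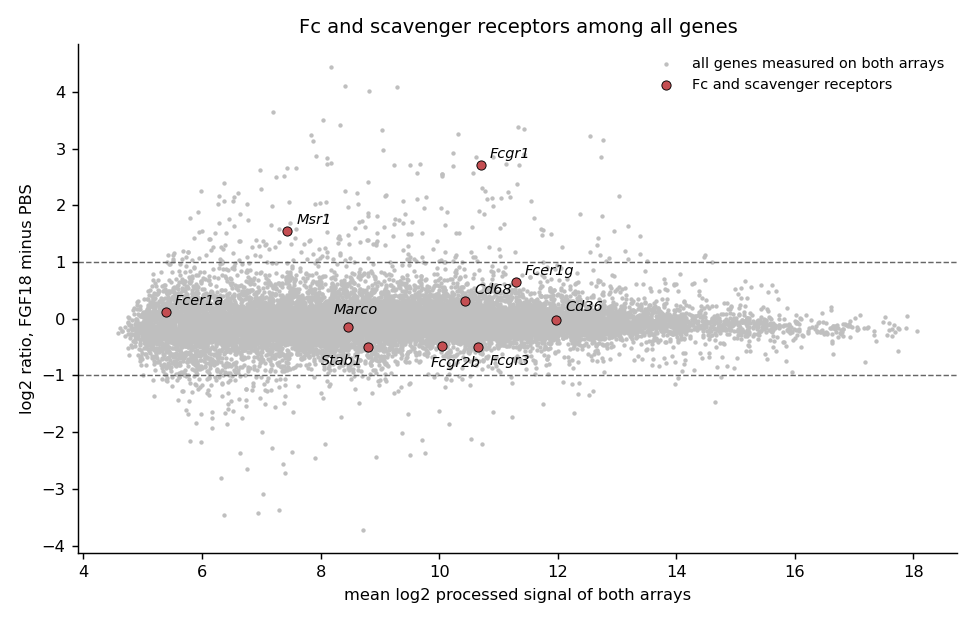
Each grey point is a gene measured on both arrays, placed by its mean log2 processed signal (x axis) and its log2 ratio, FGF18 minus PBS (y axis); red points are the 10 Fc and scavenger receptor genes and dashed lines mark 2-fold. Fcgr1 (2.72) and Msr1 (1.55) lie above the upper line, Fcer1g at 0.65 lies below it, and Fcgr2b, Fcgr3 and Stab1 lie near -0.5.

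The sequences just before the transcription start are shown for the 3 IgG receptor genes and for Fcgr4, a further activating IgG receptor gene that lies between Fcgr2b and Fcgr3 on chromosome 1 in the RefSeq gene table, because Fcgr1 and Fcgr4 had the highest Fc receptor ratios while the genes on either side of Fcgr4 were lower on the FGF18 array. They are the 250 bases before the annotated start, 5′ to 3′ on the gene's own strand, from RefSeq with assembly GRCm38.p6. Capitals mark matches to 3 motifs searched on both strands: TTCNNNGAA, a motif known from promoters of interferon-responsive genes, GAAA repeated after a gap of 2 bases, a core of sites bound by interferon regulatory factors, and GAGGAA, a core of sites bound by the myeloid factor PU.1.
Fcgr1, chr3:96293970-96294219, minus strand: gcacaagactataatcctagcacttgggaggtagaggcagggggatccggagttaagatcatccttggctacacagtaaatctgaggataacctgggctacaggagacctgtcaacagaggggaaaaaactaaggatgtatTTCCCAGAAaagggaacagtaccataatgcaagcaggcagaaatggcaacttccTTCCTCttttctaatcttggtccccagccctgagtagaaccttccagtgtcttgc
Fcgr4, chr1:171018676-171018925, plus strand: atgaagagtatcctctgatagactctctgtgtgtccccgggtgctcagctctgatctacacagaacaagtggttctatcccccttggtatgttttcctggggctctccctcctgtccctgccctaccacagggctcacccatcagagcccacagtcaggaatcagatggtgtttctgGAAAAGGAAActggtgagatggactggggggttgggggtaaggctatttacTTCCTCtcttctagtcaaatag
Fcgr2b, chr1:170976072-170976321, minus strand: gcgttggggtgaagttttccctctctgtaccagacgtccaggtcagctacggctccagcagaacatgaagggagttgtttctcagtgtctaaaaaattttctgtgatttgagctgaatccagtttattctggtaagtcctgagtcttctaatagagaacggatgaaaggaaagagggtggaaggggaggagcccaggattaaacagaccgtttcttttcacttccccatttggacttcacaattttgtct
Fcgr3, chr1:171059404-171059653, minus strand: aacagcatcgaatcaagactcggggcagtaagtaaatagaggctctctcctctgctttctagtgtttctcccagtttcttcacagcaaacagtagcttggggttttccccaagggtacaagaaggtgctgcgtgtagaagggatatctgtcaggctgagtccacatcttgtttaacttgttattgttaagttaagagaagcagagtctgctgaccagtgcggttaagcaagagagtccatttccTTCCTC

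In these windows Fcgr1 held TTCCCAGAA, a match to TTCNNNGAA, at 109 to 101 bases before the start, and TTCCTC, the reverse complement of GAGGAA, at 55 to 50 bases. Fcgr4 held GAAAAGGAAA, a match to the GAAA repeat, at 73 to 64 bases and TTCCTC at 22 to 17 bases. Fcgr3 held TTCCTC at its start and neither of the other motifs, and Fcgr2b held none of the 3. These matches did not overlap. Among the first listed windows of 27025 genes in the promoter table, 7.18% held TTCNNNGAA, 3.04% the GAAA repeat and 23.1% GAGGAA. Of the 9 receptor genes with an entry, which leaves out Msr1, 1 held TTCNNNGAA, 0 held the GAAA repeat and 6 held GAGGAA. These matches describe letters only.

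Fcgr1 encodes the high-affinity IgG receptor CD64 of monocytes and macrophages. Its probe for the RefSeq transcript had a signal of 11900 with FGF18 and 1740 with PBS, a log2 ratio of 2.59 (95% interval 2.19 to 2.99). Its other probe, designed on an allele of the strain AB/H, had signals of 1740 and 214 and a ratio of 2.84 (2.44 to 3.25). Both probes were thus far brighter on the FGF18 array and differed from each other by 0.25, close to the median range of 0.20 (log2) over 5737 genes with several probes. The gene stood 29th from the highest of 16610 ratios. Its ratio lay between 2.52 and 2.90 in 12 alternative settings and at 3.52 when the arrays were scaled to spike-in transcripts.

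Fcer1g, the common gamma chain without which CD64 and the other activating receptors do not reach the surface or signal, had signals of 5320 and 2990 on its brighter probe and 2110 and 1190 on the other. The log2 ratios of these probes were 0.65 and 0.64, each with an SE of 0.20. Both 95% intervals lay above the all-gene median, and 96.9% of genes had a lower ratio. The excess of Fcgr1 over its signalling chain was 2.07 on the log2 scale (1.67 to 2.47), a difference that no constant scaling can move.

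The low-affinity IgG receptors were on the other side of the all-gene median. Fcgr3 encodes the activating receptor CD16, and had an FGF18 signal of 2810 and a PBS signal of 3390, with a ratio of -0.45 (-0.85 to -0.05). Its other probe had 746 and 966 and a ratio of -0.55 (-0.96 to -0.15). The interval of the brighter probe included the all-gene median, and that of the dimmer probe lay below it. Both probes were thus brighter on the PBS array, and 6.59% of genes had a lower ratio than Fcgr3.

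Fcgr2b, the inhibitory receptor, offered the best view of technical error, because 1 of its 3 probes was printed as 10 spots. Over these spots the signal was 1170 at the lowest, 1270 at the median and 1360 at the highest for FGF18, and 1400, 1490 and 1580 for PBS. The spots of the arrays did not overlap in unscaled signal. As repeats of 1 probe on the same arrays they describe measurement error only, and how often other probes separated likewise was not tested. Their log2 ratios ran from -0.47 to -0.36 with a mean of -0.42 ± 0.034 (SD, n = 10 spots), a smaller spread than the SE of 0.20 that the deposited signal errors give for the probe. Another probe under the same accession had signals of 1300 and 1510 and a ratio of -0.40 (-0.80 to 0.004). The probe listed under transcript variant 2 had 531 and 707 and a ratio of -0.59 (SE 0.20). Its interval lay below the all-gene median, whereas that of the probe with 10 spots (-0.82 to -0.02) and that of the other probe included it. As the mean over probes, Fcgr2b and Fcgr3 were at -0.47 and -0.50 and differed by 0.03, and both were below 0 in 12 of 13 alternative settings and at 0.33 and 0.30 with spike-in scaling. Fcgr1 exceeded Fcgr2b by 3.19 and Fcgr3 by 3.22 on the log2 scale, that is 9.12- and 9.32-fold. Cross-hybridisation between these related transcripts was not tested.

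Fcer1a, the chain of the mast cell and basophil receptor that binds IgE, was close to the limit of detection, with signals of 46.6 and 37.7 where the lowest signal called well above background was 23.3 and 24.2. Its ratio of 0.12 (-0.55 to 0.80) was not distinguishable from the all-gene median at this signal. Ms4a2, which encodes the beta chain of the same receptor, was not well above background on either array.

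**Figure D2:**
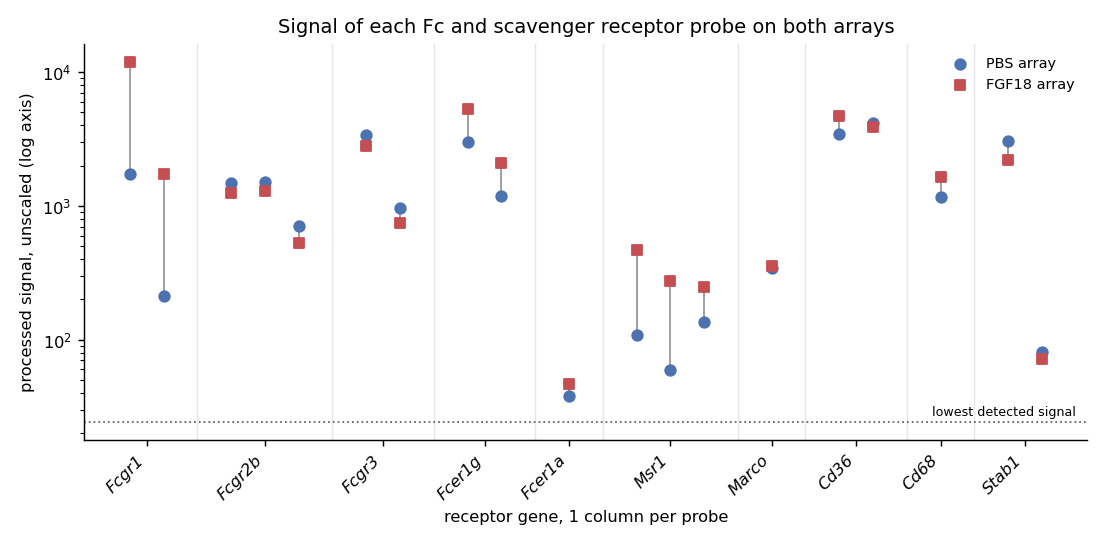
Processed signal, unscaled, of each of the 19 probes of the 10 receptor genes (log y axis, 1 column per probe); circles are the PBS array, squares the FGF18 array, and the dotted line is the lowest signal called well above background on the PBS array. The squares of both Fcgr1 probes and all 3 Msr1 probes stand above the circles, whereas for Fcgr2b, Fcgr3 and Stab1 the circles stand higher.

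Among the scavenger receptors, Msr1 differed most between the arrays. It encodes the class A receptor of macrophages that takes up modified low-density lipoprotein and bacteria. Its 3 probes had signals of 277, 468 and 246 for FGF18 and 59.3, 108 and 135 for PBS. In the descending chromosome 8 coordinates of the files, whose build the headers do not name, the first probe was followed by the second at 15.9 kb and by the third at 20.1 kb. The first 2 probes were 4.12- and 3.82-fold higher, with log2 ratios of 2.04 (1.55 to 2.53) and 1.93 (1.51 to 2.36). The third was 1.61-fold higher, at 0.68 (0.26 to 1.10), and its interval did not overlap those of the others. All 3 were brighter on the FGF18 array, but their range of 1.36 was wider than that of 99.0% of genes with several probes. The gene's ratio of 1.55 stood 122nd from the highest. It was 1.03 with normexp background correction, which adds an offset of 50 to signals and so draws in dim genes, 1.31 without probes under a signal of 100 and 1.93 with the brightest probe alone.

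Marco, a related class A receptor of macrophages that binds bacteria and particles, had almost equal signals, 356 and 346, and a ratio of -0.14 (-0.55 to 0.27). The difference between Msr1 and Marco was 1.69 on the log2 scale. The ratio of Marco was above 0 in 2 of 13 settings, at 0.04 without scaling and 0.67 with spike-in scaling.

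Cd36 encodes a class B receptor for long-chain fatty acids, oxidised lipoproteins and thrombospondin. Its probe on the RefSeq transcript had signals of 3890 and 4200 and a ratio of -0.29 (-0.69 to 0.11). The other probe had 4670 and 3460 and a ratio of 0.25 (-0.15 to 0.65). The probes thus lay on opposite sides of 0 with overlapping intervals, and their mean of -0.02 gives no direction. Cd68, a heavily glycosylated lysosomal protein used as a marker of macrophages, had signals of 1640 and 1170 and a ratio of 0.31 (-0.10 to 0.71), with 90.4% of genes lower.

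Stab1 encodes stabilin-1, a class H receptor of sinusoidal endothelium and of alternatively activated macrophages that clears the matrix protein SPARC and other ligands. Its bright probe had signals of 2210 and 3030 and a ratio of -0.64 (-1.04 to -0.24). Its dim probe had 71.5 and 81.2 and a ratio of -0.37 (-0.87 to 0.14). Both were lower on the FGF18 array, and the gene's ratio of -0.50 was below 0 in 12 of 13 alternative settings and at 0.30 with spike-in scaling. Cd68 exceeded Stab1 by 0.81 and Msr1 exceeded it by 2.05 on the log2 scale, with intervals of 0.29 to 1.32 and 1.64 to 2.47. The latter interval leaves out the range of 1.36 among the Msr1 probes, whose lowest ratio was 0.68.

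**Figure D3:**
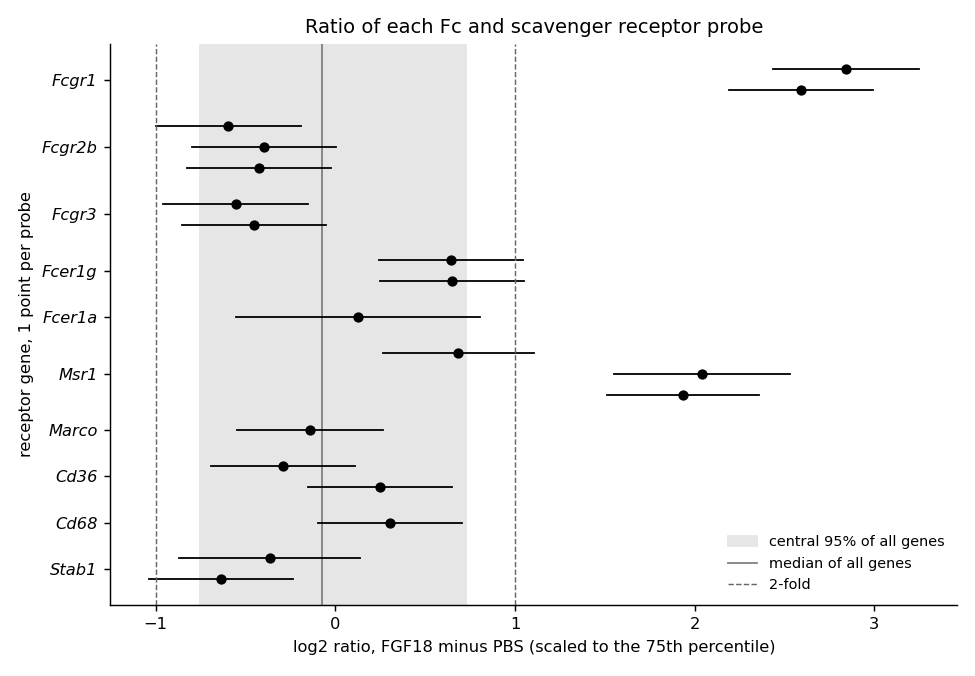
Log2 ratio, FGF18 minus PBS, of each probe (points) with the 95% interval from the deposited signal errors (bars), by receptor gene; the grey band is the central 95% of all genes (-0.75 to 0.73), the solid line their median and dashed lines 2-fold. Both Fcgr1 probes and 2 of the 3 Msr1 probes lie beyond 2-fold, the third Msr1 probe lies at 0.68, and the other genes lie inside the band.

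Lists of related genes, chosen with earlier results of these arrays known, place these receptors among their relatives and partners. Counts past 2-fold in these lists stand beside 1.54% of all genes higher, 0.987% lower and 2.53% in either direction. Of 13 other Fc receptor genes 5 were measured on both arrays, with a median of 0.01. Fcgr4 was highest at 6.71-fold (signals 799 and 105, log2 ratio 2.75), while its neighbours Fcgr2b and Fcgr3 were at -0.47 and -0.50. Trim21, an antibody receptor inside the cell, was at 0.76, Fcgrt, which carries IgG across cells and protects it from breakdown, was at -0.36, and Fcrls was lowest at -0.63. Fcmr, the IgM receptor, was well above background with FGF18 only. Its signals of 47.0 and 28.0 were near the limit of detection and gave a ratio of 1.48-fold.

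Of 18 other scavenger receptors 16 were measured, and 0 passed 2-fold in either direction. Their median was -0.24, it was also negative in the other scalings (-0.22 to -0.06) except spike-in scaling (0.57), and 5 of 16 lay above the all-gene median. Scarf1, a receptor of endothelial cells, was highest at 0.41, and Mrc1, the mannose receptor, lowest at -0.70. Cd163, the haemoglobin scavenger, was at -0.40 and Cd14, a co-receptor for bacterial lipopolysaccharide, at -0.27.

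The list of Fc receptor signalling genes leaned the other way. Of 18 measured genes 17 lay above the all-gene median, with a list median of 0.34, and 0 passed 2-fold. The adaptor Tyrobp, which serves many myeloid receptors, was highest at 0.80 (signals 4500 and 2280), Syk was at 0.32 (850 and 599), and Grap2 was lowest at -0.17. On the inhibitory side the median was 0.46 over 10 measured genes, of which Lilrb4a was 3.26-fold and Cd72 3.06-fold higher. Inpp5d and Ptpn6, the phosphatases recruited by ITIM motifs, were at 0.40 and 0.34, and Ptpn11 was lowest at -0.55.

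Receptors other than Fc receptors that pair with the gamma chain or with like adaptors had a median of 1.04 over 7 measured genes, which was 0.52 with normexp background correction. Of these, 4 were at least 2-fold higher, beside 1.54% of all genes: Cd300lf at 3.88-fold, Pira2 at 2.46-fold, Clec4d at 2.28-fold and Clec4a3 at 2.06-fold. Clec4e, which recognises mycobacterial glycolipid, was at least 8.03-fold higher and Ncr1, a receptor of natural killer cells, at least 3.90-fold higher, since neither was well above background on the PBS array. Oscar, a collagen receptor of osteoclasts and myeloid cells, was lowest at -0.63 (SE 0.41, signals 23.3 and 31.9). Its FGF18 signal equalled the lowest called well above background on that array.

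Genes of the phagosome and lysosome had a median of 0.02 over 21 measured genes and none (0) past 2-fold. Ctss, a lysosomal protease of antigen-presenting cells, was highest at 0.99 and Mfge8, which bridges dying cells to phagocytes, lowest at -0.22. Ligands of the receptors had a median of 0.02 over 7 measured genes. Ptx3, a soluble pattern receptor that binds Fc receptors, was 2.05-fold higher, Thbs1, a ligand of Cd36, was at 0.73, and Sparc, a ligand of Stab1, was lowest at -0.50. The partners of Cd36 in lipid uptake had a median of 0.09 over 13 genes, from -0.16 for Gpihbp1 to 0.59 for Abcg1.

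**Figure D4:**
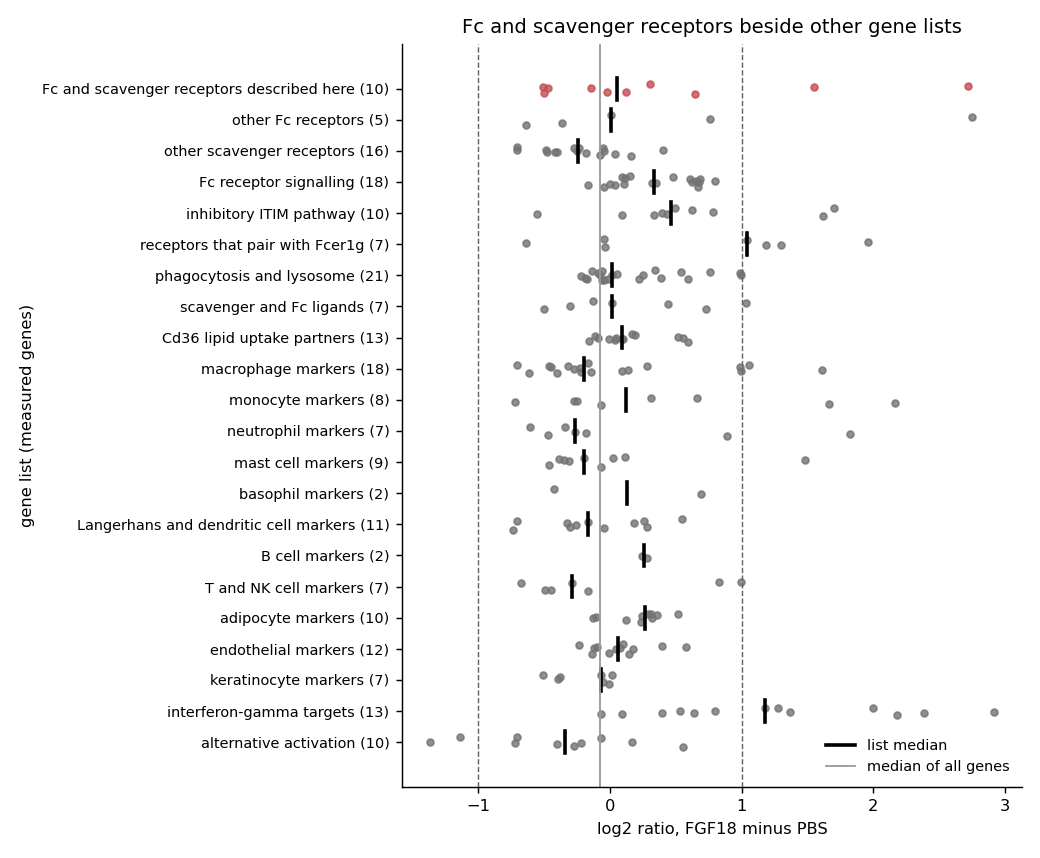
Log2 ratio, FGF18 minus PBS (x axis), of each measured gene (points) in the 10 receptor genes (red) and in 21 other lists (grey), with the number measured in brackets; black ticks are list medians, the grey line is the all-gene median and dashed lines mark 2-fold. Interferon-gamma targets and receptors that pair with Fcer1g have medians of 1.18 and 1.04, and the receptor genes spread from -0.50 to 2.72.

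Markers of the cells that carry these receptors differed unequally between the arrays, and their part in the values above was not tested. Of 20 macrophage markers 18 were measured, with a median of -0.19 and a range from -0.70 to 1.61; their unscaled signals summed to 92790 with FGF18 and 63270 with PBS, and Ctss (37300 and 16500) and Mpeg1 (14400 and 6090) made up nearly all of that difference. Of the 18 markers, 7 had ratios above 0, beside 37.5% of all genes. Adgre1, Csf1r and Lyz2, general macrophage genes, were at 0.14, -0.31 and -0.45, and Aif1 and Mpeg1 were 3.05- and 2.09-fold higher. Spi1 was well above background on the FGF18 array only and Cx3cr1 on the PBS array only. Of 11 monocyte markers 8 were measured (median 0.12, unscaled summed signal 42750 and 29380, of which Plac8 gave 19000 and 3740). Their median was below 0 with normexp (-0.04), signals over 100 (-0.16) and the brightest probe (-0.17). Plac8 was 4.48-fold and Ms4a6c 3.17-fold higher, and F13a1 was lowest at -0.72. For neutrophils 7 of 12 were measured (median -0.27, unscaled sums 4734 and 4072), from Cxcr2 at -0.61 (signals 30.2 and 40.6) to S100a8, 3.53-fold higher. Ngp, Ltf and Retnlg were not well above background on either array.

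For Fcer1a, 9 of 11 mast cell markers were measured (median -0.20, sums 11430 and 10780), from Mrgprb2 at -0.46 to Hdc, 2.79-fold higher. All sums in this paragraph are of unscaled signals, FGF18 first. The scaling values of 1020 and 899 would lower the FGF18 sums relative to the PBS sums. Of 5 basophil markers 2 were measured, Prss34 at -0.42 (signals 44.3 and 52.3) and Il3ra at 0.69. Mcpt8 was not well above background on either array. Langerhans and dendritic cell markers had a median of -0.16 over 11 of 12 (sums 8186 and 9359), from Cd207 at -0.74 to Ccr7 at 0.55. T and natural killer cell markers, 7 of 12 measured with sums of 2145 and 1494, went opposite ways. The 5 measured T cell genes lay between -0.68 (Cd4) and -0.16 (Cd2), whereas the natural killer cell genes Nkg7 and Klrd1 were at 0.83 and 1.00. Ncr1 (signals 107 and 19.4) and Klrb1c were well above background with FGF18 only. The mean signals of Klrb1c over 2 probes, 16.6 and 8.12, were near the limit of detection. The joint median of -0.29 was 0.83 with probes of 1 array or without a filter and 0.27 with signals over 100. Of 7 B cell markers 2 were measured, of which Cd79b was highest at 0.28 (signals 87.8 and 63.8). For Cd36, adipocyte markers had a median of 0.27 over 10 genes (Cfd at -0.12 to Thrsp at 0.52, sums 172600 and 150500) and endothelial markers 0.06 over 12 (Plvap at -0.24 to Kdr at 0.58, sums 15600 and 13540). Keratinocyte markers, which identify the tissue as skin, were at -0.06 over 7 genes (Dsp at -0.51 to Krt14 at 0.01, sums 430800 and 412800). The negative list medians of macrophages, neutrophils, mast cells and T and natural killer cells were above 0 with spike-in scaling (0.61, 0.54, 0.61 and 0.52), and that of neutrophils also with signals over 100 (0.35). Those of Langerhans and dendritic cells and of keratinocytes were above 0 there too (0.64 and 0.74), and reached 0.02 and 0.12 in the remaining scalings.

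Genes of macrophage activation states were set beside the receptors. Of 13 measured interferon-gamma targets, 7 were at least 2-fold higher, beside 1.54% of all genes. Their median was 1.18, and 0.80 without a filter. Fcgr1 is known to belong to this class, and whether interferon-gamma bears on its ratio was not tested. Cxcl10 was highest at 7.56-fold, the related chemokine Cxcl9 was 4.54-fold higher, and the guanylate-binding proteins Gbp3, Gbp2 and Gbp5 were 5.21-, 3.99- and 2.58-fold higher. Cd274, an inhibitory ligand of T cells, was 2.42-fold higher, and Ciita was lowest at -0.07. Of 10 measured genes of alternative activation, 2 were more than 2-fold lower, Arg1 (2.57-fold) and Retnla (2.21-fold), beside 0.987% of all genes. None (0) was 2-fold higher. The list median of -0.34 stayed negative in the other scalings except spike-in scaling (0.47). Tgm2 was highest at 0.56.

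**Figure D5:**
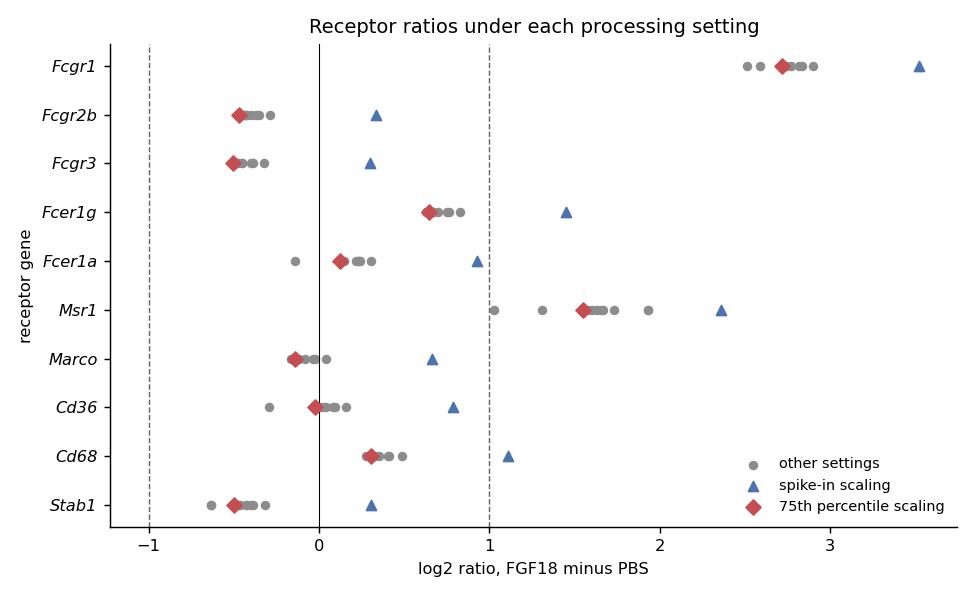
Log2 ratio, FGF18 minus PBS (x axis), of each receptor gene under the scaling used in the text (red diamonds), scaling to spike-in transcripts (blue triangles) and the other alternative settings (grey points); dashed lines mark 2-fold. Fcgr1 and Msr1 are beyond 2-fold in every setting shown, and Fcgr2b, Fcgr3 and Stab1 are below 0 except with spike-in scaling, which adds 0.81 to every ratio.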

How the data were processed

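Intensities of 2 single-colour arrays, 1 per group, were used. Feature Extraction 9.5.3.1 made the files for Agilent design 014868, per the file headers; the deposited intensity is background-subtracted and detrended, with a surrogate near background, and each spot has a signal error. Spot types and flags are other columns of the deposited files. The deposited series table is a ratio, the processed signal over the array median, within 0.0078 (log2). The build of the probe coordinates was not given in sources used here, and 0 value columns were unmapped.

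Control spots and outlier spots were left out (151 of 43379), log2 signals were scaled to the 75th percentile, the spots of a probe and then the probes of a gene were averaged, and measured probes had at least 0.5 of spots well above background. A gene measured on 1 array gives a bound against the other array's lowest detected signal (23.3 and 24.2). Where the gene's own signal there was higher, that signal was used and the value is a plain ratio. Negative controls had median signals of 5.74 and 6.03, and 0 spots were saturated; the number of arrays limits precision. Names came from RefSeq (GRCm38.p6): of 41165 probes, 23368 matched by accession, 6732 by symbol and 2907 by synonym.

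The members and the 21 lists were chosen with earlier results of these data known. Named were all members, list members past 2-fold, each list's highest and lowest, and a few fixed genes such as Fcgr4 and Tyrobp; a few genes under this rule are not reported here. No genes of like pattern were sought, since 2 arrays hold 1 difference per gene. Ratios were checked on simulated data. Python 3.11.15, pandas 2.3.3 and limma 3.58.1 (normexp, quantile, loess) were used.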

Additional observations from a re-analysis of the deposited data

How the results depend on the processing

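The count of receptor genes at least 2-fold higher was 2, Fcgr1 and Msr1, in 12 of 15 alternatives; it was 3 (with Fcer1g) at a threshold of 1.5-fold, 4 with spike-in scaling (with Fcer1g at 1.45 and Cd68 at 1.11) and 1 (Fcgr1) at 3-fold. The count at least 2-fold lower was 0 in all 15. The alternatives were scaling to the median, none, quantile, loess, the 75th percentile of detected probes or 7 spike-in probes, normexp, the series value table, 3 filters on dim probes, the brightest or median probe, and thresholds of 1.5 and 3. The filter at a signal of 100 left no value for Fcer1a or for the B cell list. Across all genes the median ratio was -0.07, but 0.11 without scaling and 0.74 with spike-in scaling; which of these reflects the RNA input was not tested. Genes at least 2-fold higher and lower numbered 256 and 164, and 291 and 114 with median scaling, 336 and 92 without scaling, 284 and 124 with loess, 2610 and 28 with spike-in scaling, 167 and 68 with normexp, 790 and 897 without a filter, 562 and 437 with probes of 1 array, and 181 and 70 with signals over 100. No replicate could be left out with 1 array per group. No paired analysis was possible because the groups share 1 replicate number only and no test was made. Signals near background limit Fcer1a, the dim probe of Stab1 and the dimmest Msr1 probe, which had a signal of 59.3 on the PBS array.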
